A study of Mus musculus with 3 samples.

Results

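A set of 10 genes of glucose uptake, glycolysis and its oxygen-dependent control was examined in chromatin-associated RNA of mouse macrophages: Hif1a, Slc2a1, Hk1, Hk2, Hk3, Pfkp, Pfkfb3, Pkm, Ldha and Gapdh. They were chosen by symbol, with earlier results of these data known. All 10 of 10 symbols matched 1 gene each among the 55536 annotated genes. The RNA came from the chromatin fraction of BMDM cells (bone-marrow-derived macrophages, primary cells of strain C57BL/6J) kept for 30 min with lipid A at 100 ng/ml. Lipid A, the membrane anchor of bacterial lipopolysaccharide, is sensed by the receptor TLR4. After removal of ribosomal RNA 3 libraries were made, numbered as biological replicates 1 to 3, from 1 µg, 250 ng and 500 ng of RNA. All 3 libraries are of this 1 group and cite the same donor record, and age and sex were not collected. No untreated, later or other-fraction sample was analysed here, so the values are levels in stimulated cells and do not show a response to lipid A. Nothing in the labels says whether the replicates came from separate animals, so the spread between libraries may be partly technical.

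Glycolysis splits glucose into pyruvate. Glucose enters through transporters such as Slc2a1 (GLUT1), a hexokinase traps it as glucose 6-phosphate, phosphofructokinase commits it to breakdown, Gapdh carries out the oxidation step, pyruvate kinase makes pyruvate, and lactate dehydrogenase turns pyruvate into lactate. Hif1a is the oxygen-regulated subunit of the transcription factor HIF-1, which binds many glycolytic gene promoters, and macrophages activated through TLR4 are known to raise glycolysis. RNA held on chromatin is largely nascent or not yet released, so its level is closer to recent transcription than to the pool of mature messenger RNA.

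Library totals over annotated genes were 16301150, 17033725 and 16205704 expected counts, which are estimated read counts per gene. In TPM, a length-corrected level scaled to a fixed total per library, genes with under 300 nt of merged exons took 72.9%, 66.3% and 56.7% of the total in libraries 1, 2 and 3. TPM of the median detected gene was offset by -0.368, -0.137 and 0.515 on the log2 scale from its own mean over libraries. For this reason TPM was compared between genes within a library, and libraries were compared by CPM, counts scaled to a common library size, with TMM scaling. All 10 macrophage markers were detected, led by Cybb, Csf1r and Cd14, with a summed TPM of 829 to 1277 per library. Summed TPM was 0.81 to 2.12 for 8 neutrophil markers, 0.21 to 0.48 for 8 T and B cell markers, 3.87 to 6.22 for 6 erythroid markers and 1.63 to 3.51 for 8 stromal and endothelial markers. Detected were 1 of 8 neutrophil, 0 of 8 T and B cell, 2 of 6 erythroid and 5 of 8 stromal and endothelial markers. The erythroid marker Alas2 had 36.9, 25.3 and 30.3 counts and the endothelial marker Kdr 140, 110 and 147. Cd3e, Cd3g and Klf1 were among the markers at 0 counts in all 3 libraries.

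All 10 genes were detected, here a mean expected count of at least 10, against 49.9% of protein-coding genes. The lowest count of any of them in a library was 122. Hk3 alone reached a mean of 100 TPM, a level reached by 1.45% of protein-coding genes. The median of the 10 mean levels was 12.2 TPM, beside 4.98 TPM over 10983 detected protein-coding genes, and 9 of the 10 genes lay above that value. Because the 10 genes were chosen with earlier results of these data known, these comparisons with all genes are description and not a test. From high to low the order was Hk3, Pkm, Pfkfb3, Pfkp, Hk2, Gapdh, Hif1a, Ldha, Hk1 and Slc2a1. It is an order in TPM, to which short transcripts add more per count than long ones. By counts Pfkfb3 was below Pfkp, with means of 1513 and 2225. The part of transcript length in the order was not tested. A bulk library cannot tell fewer cells transcribing a gene from less RNA per cell.

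**Figure D1:**
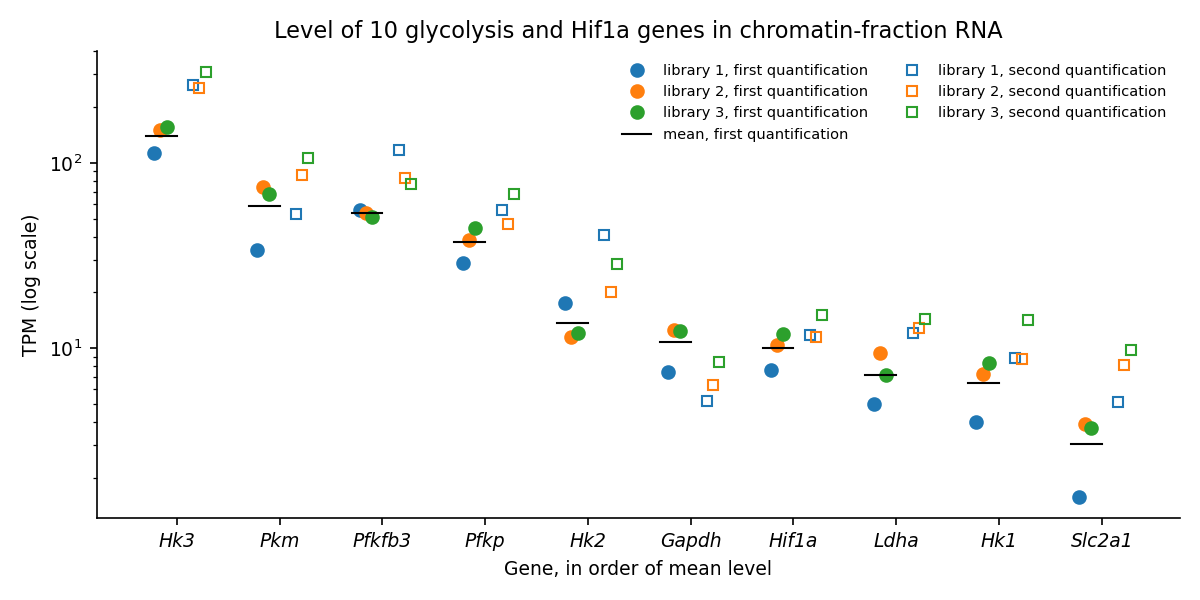
TPM on a log axis for each of the 10 genes in order of mean level, with filled circles for libraries 1 to 3 in the gene-level quantification, black lines for its mean and open squares for the second quantification. Hk3 is highest in every library at 113 to 156 TPM, and Slc2a1 is lowest in the gene-level quantification at 1.58 to 3.90 TPM.

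Hif1a (ENSMUSG00000021109.13, mm10 chr12:73901375-73947530, plus strand) encodes the subunit whose protein is destroyed when oxygen is present. Its expected counts were 399, 455 and 440 in libraries 1, 2 and 3. Its level was 7.59, 10.4 and 11.9 TPM, a mean of 9.97 ± 2.19 TPM (SD, n = 3), which ranked 3668 of 22028 protein-coding genes. After TMM scaling Hif1a was the steadiest of the 10 genes, at 4.70, 4.79 and 4.63 log2 CPM, an SD of 0.0821. The 3 detected protein-coding genes with log2 CPM values nearest to those of Hif1a over the 3 libraries were Hira, Bahcc1 and Pias2, at Euclidean distances of 0.0606, 0.0606 and 0.0651 among 10983 genes compared.

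Partners and regulators of HIF were mostly present. Of 15 listed genes 12 were detected, with a median of 5.03 TPM. Arnt, the constitutive partner with which Hif1a binds DNA, had 31.7, 53.8 and 73.2 TPM and was higher than Hif1a in each library. The coactivators Ep300 and Crebbp had 43.1 ± 11.2 and 26.4 ± 4.86 TPM (SD, n = 3). Egln3, an oxygen-sensing prolyl hydroxylase, and Hif3a, a further HIF subunit, were listed at 0 in this quantification. In the second quantification Hif3a had 0.886 to 2.27 TPM while Egln3 was again at 0.

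Slc2a1 (ENSMUSG00000028645.11, chr4:119108711-119137983, plus strand) had the lowest level of the 10 genes. Its expected counts were 122, 274 and 174, and its TPM values 1.58, 3.90 and 3.69 averaged 3.06 ± 1.28 (SD, n = 3). Library 2 held 2.10 times the scaled level of library 1. Among 13 other glucose and lactate transport genes 7 were detected, with a median of 1.26 TPM. Slc2a6, another hexose transporter, led them at 49.8, 23.3 and 53.7 TPM, above Slc2a1 in every library. Slc16a7 and Slc16a3, which carry lactate and other monocarboxylates, had 9.80 ± 3.36 and 8.19 ± 5.92 TPM (SD, n = 3). Slc2a10 and Slc2a13 were listed at 0 in the gene table but had 0.127 to 0.417 and 1.38 to 2.42 TPM in the second quantification.

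The 3 hexokinases carry out the same step and differed widely in level. Hk3 (ENSMUSG00000025877.14, chr13:55005985-55021385, minus strand), a hexokinase known from myeloid cells, had expected counts of 6794, 8605 and 5207. Its TPM was 113.2, 150.7 and 155.8, a mean of 140 ± 23.3 (SD, n = 3), which ranked 195 of 22028 protein-coding genes. Hk2 (ENSMUSG00000000628.10, chr6:82725025-82774454, minus strand), the inducible hexokinase that binds mitochondria, had counts of 1441, 891 and 710 and TPM values of 17.4, 11.5 and 12.1. Hk1 (ENSMUSG00000037012.18, chr10:62268855-62379908, minus strand), the widely expressed form, had counts of 289, 375 and 308 and TPM values of 3.99, 7.26 and 8.28. Hk3 lay above Hk2, and Hk2 above Hk1, in every library by this measure. By the deposited posterior mean TPM, Hk1 and Hk2 had 6.44 and 17.0 in library 1, 10.4 and 11.3 in library 2, and 12.5 and 11.7 in library 3, where their order turned.

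Hk3 made up 84.1%, 88.9% and 88.5% of the summed TPM of the 3 hexokinases, and 84.1%, 89.8% and 87.9% in the second quantification. On the log2(TPM + 0.1) scale Hk3 exceeded Hk2 by 2.69, 3.70 and 3.68 in the 3 libraries, a mean of 3.36 ± 0.579 (SD, n = 3), or 10.3-fold. Flipping signs over the 3 libraries (exact permutation, two-sided) gave p = 0.25 (adjusted p = 0.361 over 13 contrasts), and 0.25 is the smallest value that 3 libraries allow. Hk3 exceeded Hk1 by 21.9-fold, with a within-library difference of 4.46 ± 0.3 (SD, n = 3). Hk2 exceeded Hk1 by 2.14-fold, with library values that ranged from 0.536 in library 3 to 2.10 in library 1. With posterior mean TPM the mean log2 difference Hk1 minus Hk2 was -0.474 in place of -1.10, and Hk1 minus Hk3 was -3.79 in place of -4.46. The deposited TPM of Hk1 lay below its deposited credible bounds in each library (4.92 to 8.18, 7.93 to 12.9 and 9.17 to 16.1), so the level of Hk1 was less certain than its counts alone show. The TPM of Hk3 was slightly above its bounds of 105.2 to 112.8, 139.6 to 148.7 and 139.3 to 151.8.

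An antisense gene lies within Hk2. Gm17034 (chr6:82764282-82767288, plus strand) had counts of 355, 208 and 184, highest in library 1 as for Hk2 itself. The strand setting of the counting is not given in the sources used here, so reads of Hk2 and Gm17034 cannot be separated with certainty, and the part of Gm17034 in the level of Hk2 was not tested. Hk2 was the most variable of the 10 genes after scaling, at 6.55, 5.76 and 5.32 log2 CPM.

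The phosphofructokinase step was represented by its enzyme and by an activator. Pfkp (ENSMUSG00000021196.14, chr13:6579768-6648777, minus strand), the platelet-type phosphofructokinase, had counts of 2384, 2224 and 2066 and TPM values of 28.8, 38.1 and 44.6. Pfkfb3 (ENSMUSG00000026773.19, chr2:11471433-11554077, minus strand) makes fructose 2,6-bisphosphate, the main activator of phosphofructokinase, and had counts of 1762, 1466 and 1311. Its TPM values were 55.6, 53.9 and 50.7, a mean of 53.4 ± 2.46 (SD, n = 3). After TMM scaling Pfkfb3 had 6.84, 6.48 and 6.20 log2 CPM, an SD of 0.318. Pfkp was below Pfkfb3 in all 3 libraries, by a mean of 0.543 ± 0.383 on the log2 scale (SD, n = 3; exact permutation p = 0.25, adjusted p = 0.361). Both genes were highest in library 1 and lowest in library 3 after scaling. Among other isozymes, Pfkl had 9.58 and Pfkm 1.91 TPM on average, and among the related kinases Pfkfb2 had 13.4 ± 3.58 and Pfkfb4 9.56 ± 2.38 TPM (SD, n = 3). Pfkl and Pfkm are named here beside Pfkp because they encode the same enzyme, outside the rule for named genes. Pfkp shares 748 nt at its end with Pitrm1 on the opposite strand, which had 590, 637 and 514 counts. Within Pfkfb3 lie the antisense gene Gm10851, with 100, 101 and 77 counts, and the same-strand model Gm37975, with 173, 213 and 173.

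Gapdh (ENSMUSG00000057666.18, chr6:125161715-125166467, minus strand) held the middle of the order, and its protein is one of the most abundant enzymes of the pathway. Its expected counts were 194, 234 and 218, and its TPM values 7.40, 12.5 and 12.4 averaged 10.8 ± 2.93 (SD, n = 3). In the second quantification its level was 5.17, 6.33 and 8.43 TPM, the lowest mean of the 10 genes there, whereas each of the others had a higher mean than in the first. Near-identical copies bear on this value. An alignment search (at least 90% identity over at least 300 nt) found 202 annotated pseudogenes that resemble Gapdh, of which 15 had a mean count of at least 10. Together they held 981, 734 and 982 counts, or 83.5%, 75.8% and 81.8% of all counts on Gapdh and its pseudogenes. In the second quantification that share was 91.8%, 88.6% and 91.6%. Peli2, a protein-coding gene with a stretch of 396 nt that is 94.2% identical to a Gapdh transcript, had 270, 197 and 333 counts and is not in these sums. Also outside them are Vmn2r60, 98.4% identical over 498 nt, and Gm3839, 99.5% identical over 399 nt, both annotated as protein coding. In the second quantification Vmn2r60 had 546, 667 and 736 counts and Gm3839 346, 377 and 273. In the first they had 0 and at most 1.21 counts.

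The pseudogenes with most counts lie within other genes. Gm11960, 98.0% identical to Gapdh over 396 nt, lies at chr11:4561780-4564637 within Mtmr3 and had 345, 255 and 412 counts. Gm17068 lies within Gnaq with 214, 123 and 132 counts, and Gm26931 within Fam193a with 75, 74 and 84. How many of these reads belong to the host genes and how many to Gapdh was not tested, so the level of Gapdh is uncertain.

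Pkm (ENSMUSG00000032294.17, chr9:59656368-59679375, plus strand), pyruvate kinase of muscle and most other tissues, was among the higher genes. Its expected counts were 1630, 3170 and 1940, and its TPM values were 34.0, 73.7 and 67.7, a mean of 58.5 ± 21.4 (SD, n = 3). Library 2 stood highest after scaling, at 7.59 log2 CPM against 6.73 and 6.77 in the other two. Pklr, the pyruvate kinase of liver and red cells, had 1, 1 and 0 counts and is named here as the other gene of this enzyme, outside the rule for named genes.

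Pkm makes the M1 and M2 enzymes from mutually exclusive exons, and M2 is the form known from proliferating and activated cells. Both exons are 167 nt long and are exon 9 of their transcripts, coding sequence in each case. The downstream exon (chr9:59675568-59675734) is in Pkm-201 and the upstream exon (chr9:59675029-59675195) is in Pkm-202. They are identical at 103 of 167 positions, or 61.7%, and the 64 positions that differ are in capitals below, shown because they are what distinguishes the M1 and M2 forms. Pkm-201 also extends beyond Pkm-202 at both ends, so reads there can separate the transcripts too, and the comparison of their levels does not rest on the exons alone (GENCODE M21 transcripts, 5′ to 3′).
Pkm-201 exon 9 (M2-type): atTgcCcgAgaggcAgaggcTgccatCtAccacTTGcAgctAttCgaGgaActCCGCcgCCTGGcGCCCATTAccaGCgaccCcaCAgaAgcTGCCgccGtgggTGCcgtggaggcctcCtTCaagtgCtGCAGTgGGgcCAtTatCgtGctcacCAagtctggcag
Pkm-202 exon 9 (M1-type): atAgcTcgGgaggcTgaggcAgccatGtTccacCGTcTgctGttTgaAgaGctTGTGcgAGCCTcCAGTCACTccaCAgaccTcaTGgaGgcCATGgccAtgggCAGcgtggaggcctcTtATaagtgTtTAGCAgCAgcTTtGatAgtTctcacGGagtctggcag

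Pkm-201, with the downstream exon, had 615, 1173 and 977 expected counts against 313, 556 and 168 for Pkm-202. In TPM the values were 10.3, 21.8 and 27.6 for Pkm-201 and 6.36, 12.6 and 5.76 for Pkm-202. The downstream form was thus higher in 3 of 3 libraries, by 1.62, 1.73 and 4.78-fold, and this comparison was chosen after the values were seen. The mean log2 ratio was 1.25 ± 0.874 (SD, n = 3), with p = 0.25 by the exact two-sided permutation of signs, the smallest possible. Without library 3 the mean log2 ratio was 0.747, and the second quantification gave 0.939. An unnamed same-strand gene model, Gm49759 (chr9:59672814-59676700), spans both exons and had 763, 1114 and 1023 counts, and its part in the ratio was not tested.

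**Figure D2:**
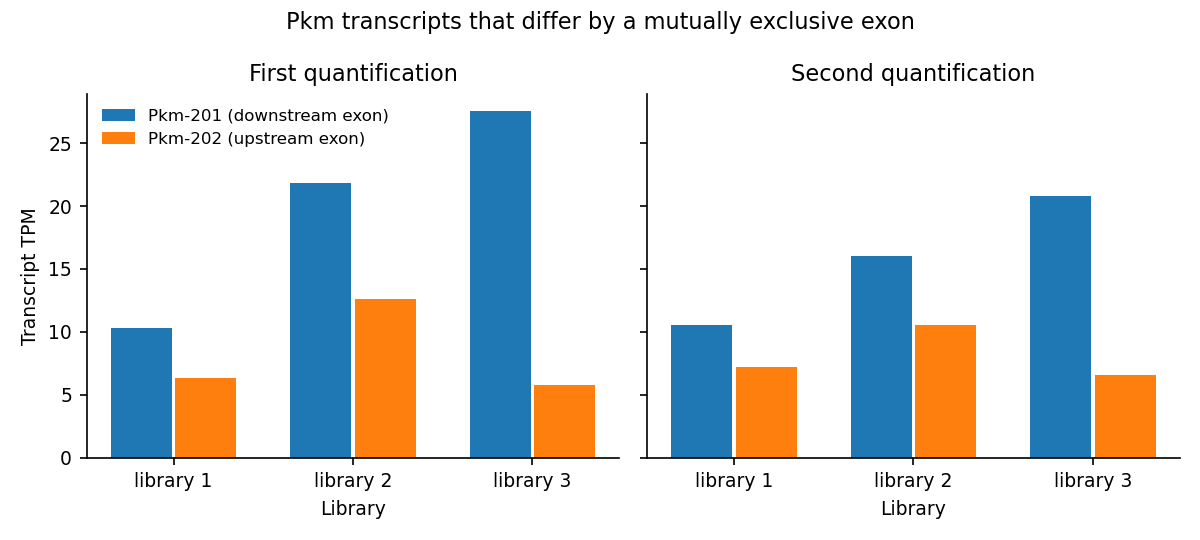
TPM of Pkm-201, which holds the downstream exon, and Pkm-202, which holds the upstream exon, in libraries 1 to 3 for each quantification, with 1 bar per transcript and library. Pkm-201 is the taller bar in all 3 libraries of both panels, and the gap is widest in library 3.

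Ldha (ENSMUSG00000063229.15, chr7:46841475-46855627, plus strand), which turns pyruvate into lactate, had the lowest mean count of the 10 genes. Its expected counts were 148, 212 and 131, and its TPM values 5.02, 9.43 and 7.15 averaged 7.20 ± 2.21 (SD, n = 3). Pkm exceeded Ldha in each library, by a mean of 2.97 ± 0.245 on the log2 scale (SD, n = 3), or 7.85-fold (exact permutation p = 0.25, adjusted p = 0.361). Ldha also has pseudogene copies: 17 were found, and they held 46, 49 and 67 counts, or 23.7%, 18.8% and 33.8% of counts on Ldha and its copies. The copy with most counts, Gm7997, lies within Gab1 and had 36, 34 and 42 counts.

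**Figure D3:**
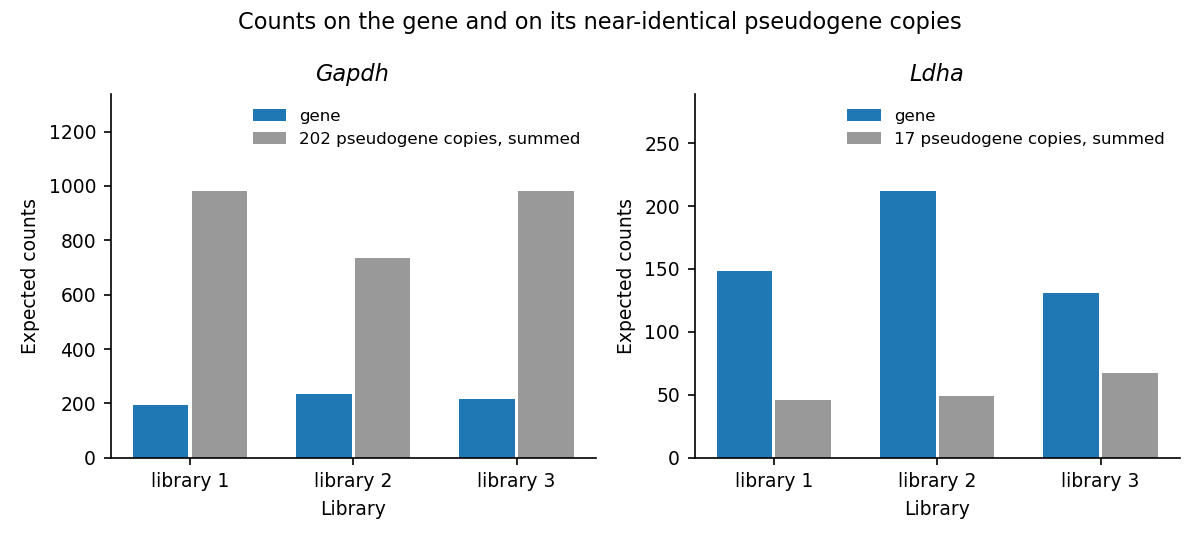
Expected counts on Gapdh and Ldha in libraries 1 to 3, each beside the summed counts on its annotated pseudogene copies. For Gapdh the copies hold 734 to 982 counts against 194 to 234 on the gene, while for Ldha the gene holds more than its copies in every library.

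Other enzymes of the pathway were lower than the leading genes above. Of 23 further glycolytic genes 12 were detected, with a median of 0.907 TPM over all 23, and none reached 100 TPM. Gpi1, which isomerises glucose 6-phosphate, had 20.1 ± 5.26 TPM (SD, n = 3). Eno2, an enolase best known from neurons, had 19.1 ± 1.80 TPM (SD, n = 3). Aldoa, the main aldolase, had 5.81, 12.7 and 13.6 TPM in the 3 libraries. Eno1b was listed at 0 in the gene table, with 0.538 to 0.765 TPM in the second quantification.

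Regulators of fructose 2,6-bisphosphate and pyruvate use and known HIF targets outside glycolysis gave a mixed picture. Of 14 regulators 12 were detected, with a median of 1.66 TPM, led by the pyruvate carrier Mpc1 at 25.4 ± 8.82 TPM (SD, n = 3). Pdk4 and Gckr did not reach the detection level, with at most 2 counts in a library. Of 16 HIF targets 14 were detected, with a median of 4.42 TPM. Vegfa, which encodes the angiogenic growth factor, had 134, 260 and 364 TPM and was the only one at a mean of 100 TPM. Kdm3a, a histone demethylase, had 45.8 ± 16.6 TPM (SD, n = 3), and Ero1l, an oxidase of the endoplasmic reticulum, had 21.6 ± 0.289 TPM (SD, n = 3) but 96.9, 76.1 and 105 TPM in the second quantification. Ankrd37 and Car12 did not reach the detection level.

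Some places in the order of the 10 genes were not resolved by 3 libraries. Of the 9 pairs of neighbours in the order, 5 had the same sign in all 3 libraries and 4 did not. The pairs were set by ranking these same TPM values, so equal signs describe the order and do not test it. The 4 pairs of mixed sign were Pkm and Pfkfb3, Hk2 and Gapdh, Gapdh and Hif1a, and Ldha and Hk1. Their mean log2 differences were 0.0545 ± 0.658, 0.352 ± 0.759, 0.0962 ± 0.151 and 0.163 ± 0.323 (SD, n = 3). Their exact permutation p-values were 1, 1, 0.5 and 0.5, with adjusted values of 1, 1, 0.591 and 0.591. Hk3 exceeded Pkm, the next gene, by 2.5-fold, and Pfkp exceeded Hk2 by 2.71-fold (exact permutation p = 0.25 for each, adjusted p = 0.361).

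Between libraries the 10 genes differed in how much they varied. The median SD of log2 CPM over the 3 libraries was 0.361 for them, beside 0.285 over 14396 detected genes, of which the middle 95% ran from 0.0510 to 0.997, and 0.233 over the 8051 genes with a mean of 100 to 10000 counts. Hif1a, Gapdh, Hk1 and Pfkp had a smaller SD than most detected genes, of which 6.7%, 12.4%, 32.4% and 33.0% lay below them. All 10 lay within the range of the middle 95%. After scaling 7 of the 10 were highest in library 2 and 3 were highest in library 1, while 8 were lowest in library 3. The same count over all detected genes was not made, so this pattern cannot be called particular to the 10 genes. Hk2 spanned 2.34-fold and Slc2a1 2.10-fold between the highest and lowest library, against 1.12-fold for Hif1a and 1.16-fold for Gapdh. Starting RNA differed between the libraries, and with 1 library at each amount its part cannot be told apart from other differences between them.

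**Figure D4:**
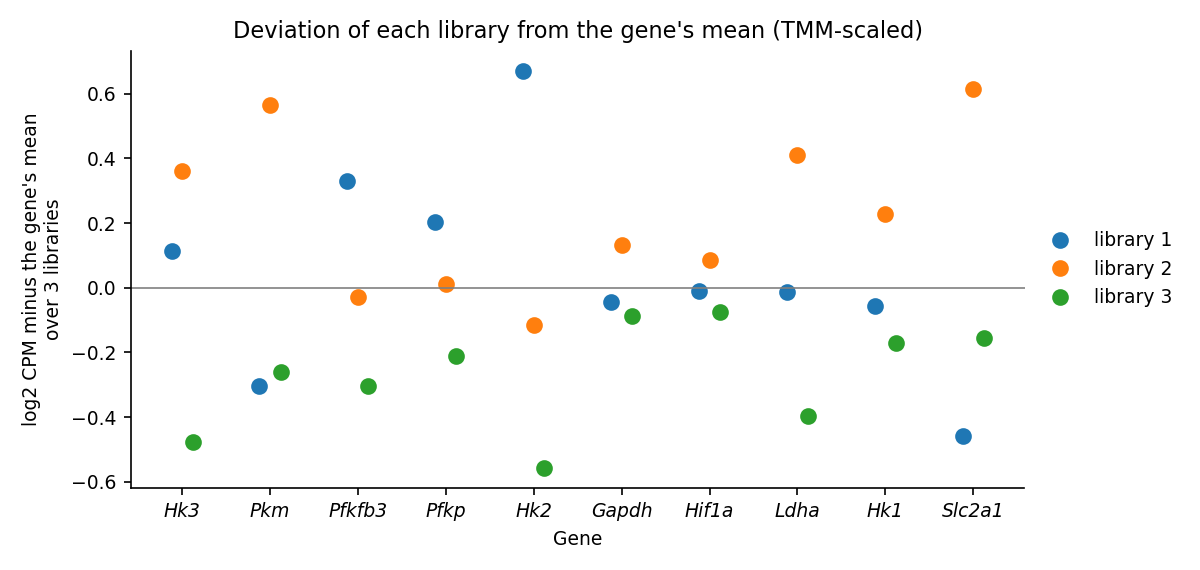
Log2 CPM of each library minus the gene's mean over the 3 libraries, after TMM scaling, for the 10 genes in order of mean TPM, with 1 point per library. Library 2 is highest for 7 genes and library 3 lowest for 8, counts that were not set beside all detected genes. The points of Hif1a and Gapdh lie closest together.

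Much of the signal of several genes was assigned to transcript models that are not annotated as protein coding. For 4 of the 10 genes, Hif1a, Pfkp, Pfkfb3 and Pkm, the model with the highest mean share of TPM was not protein coding. In each of the 4 it was a retained-intron model. A noncoding main model of any type was found in 35.6% of 9017 detected protein-coding genes that have a noncoding model. The median share of TPM on coding models was 57.1% over the 10 genes and 55.0% over those 9017. Pfkp had the lowest share at 6.55%, 8.34% and 4.58%, with 93.4 ± 2.07% (SD, n = 3) on retained-intron models. By this measure 2.81% of the 9017 genes had a lower coding share. Pfkfb3 followed at 17.1%, 16.8% and 28.6%. In the second quantification the coding share of Pfkp was 20.2 ± 3.10% and that of Pfkfb3, then the lowest, was 18.2 ± 3.22% (SD, n = 3). Slc2a1 at 91.7 ± 7.56%, Hk2 at 87.3 ± 7.16% and Hk1 at 81.9 ± 10.7% (SD, n = 3) were mostly on coding models. Models not annotated as coding were 9 of 13 for Pfkp and 9 of 21 for Pfkfb3. For Slc2a1, Hk2 and Hk1 they were 1 of 5, 1 of 4 and 2 of 20. How far the annotation shapes these shares was not tested.

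Model length matters to these shares. Hif1a-204, a retained-intron model of 693 nt, took 52.0%, 56.0% and 41.3% of Hif1a TPM from 52, 65 and 36 counts, while the 4724 nt coding transcript Hif1a-201 held 238, 213 and 272 counts. By counts 87.9 ± 3.17% of Hif1a (SD, n = 3) was on coding models, and so was 59.5 ± 11.5% of Pfkfb3. Pfkp differed, since its 8681 nt retained-intron model Pfkp-212 held 66.9% of counts on average and coding models held 7.89 ± 2.31% (SD, n = 3). In Pkm the retained-intron model Pkm-205 took 35.9 ± 2.46% of TPM, and Pkm-201 took 33.5 ± 6.21% (SD, n = 3). In Hk3 the coding model Hk3-208 took 33.9 ± 3.13%, and Hk3-204, annotated as a target of nonsense-mediated decay, took 24.7 ± 6.28% (SD, n = 3).

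**Figure D5:**
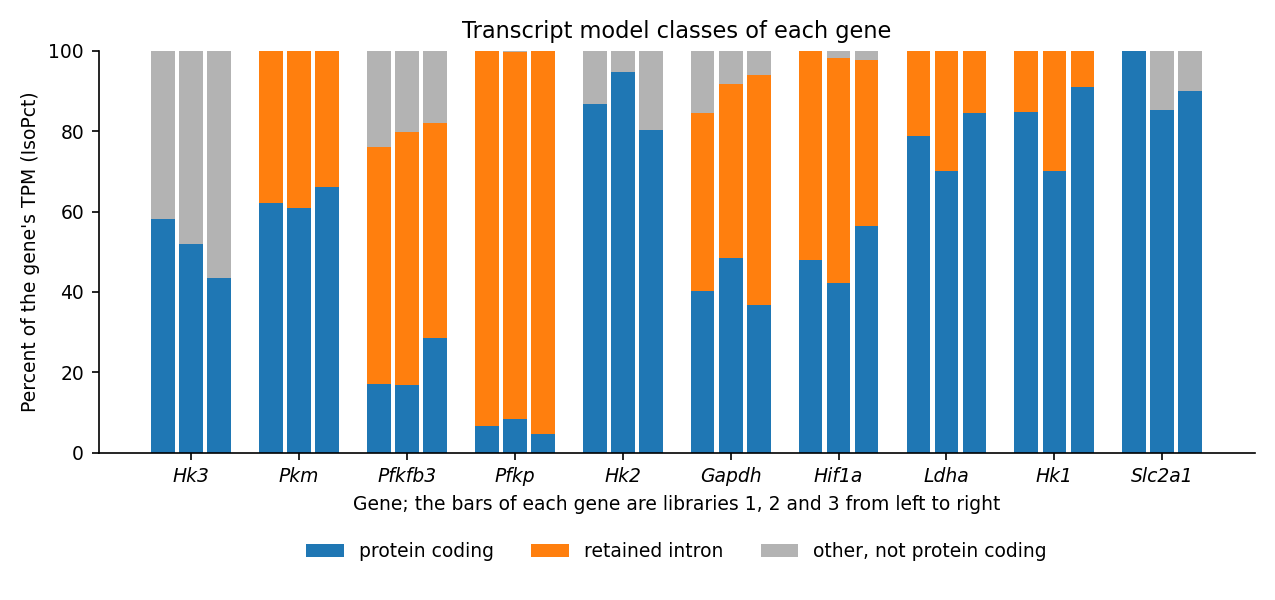
Percent of each gene's TPM on protein-coding, retained-intron and other models in libraries 1, 2 and 3, as stacked bars that sum to 100 for each gene and library. Pfkp is almost wholly on retained-intron models at 91.3% to 95.4%. Slc2a1, Hk2 and Hk3 have no annotated retained-intron model, so their share of that class is 0 by annotation.

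The 10 genes have 14 promoter windows in RefSeq (GRCm38.p6, the same assembly as mm10), here the 250 bases before each listed start. The core of the HIF response element was searched on both strands as ACGTG or GCGTG, and 12 of the 14 windows held at least 1 match, against 38.6% of 32851 windows. ACGTG was in 8 of 14, against 16.6% of all windows, and GCGTG in 6 of 14, against 28.2%. Among windows with at least 14 CG dinucleotides 8 of 9 held either form, against 67.3%. That minimum was the median over the 14 windows of these genes, and windows with fewer CG dinucleotides were not compared in this way. The palindrome CACGTG, which counts as a match on each strand and is also the E-box bound by other factors, was in 3 of 14, against 6.02%. A match is a description of the letters and does not show binding.

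3 windows are shown: Ldha with most ACGTG matches, Hif1a itself, and Hk3 with the highest level. Capitals mark ACGTG matches on either strand, and each sequence is given 5′ to 3′ on the strand of its gene.
Ldha, chr7:46845554-46845803, plus strand: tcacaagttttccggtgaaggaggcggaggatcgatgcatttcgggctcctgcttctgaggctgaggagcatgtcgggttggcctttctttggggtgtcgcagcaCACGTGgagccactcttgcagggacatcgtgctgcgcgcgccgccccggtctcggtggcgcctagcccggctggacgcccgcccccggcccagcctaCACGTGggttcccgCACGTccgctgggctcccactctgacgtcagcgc
Hif1a, chr12:73907617-73907866, plus strand: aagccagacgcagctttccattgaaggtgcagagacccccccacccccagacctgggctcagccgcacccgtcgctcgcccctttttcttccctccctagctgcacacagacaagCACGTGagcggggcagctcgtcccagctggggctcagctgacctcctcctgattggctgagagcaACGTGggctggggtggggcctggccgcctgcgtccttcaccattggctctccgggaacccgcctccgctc
Hk3, chr13:55021386-55021635, minus strand: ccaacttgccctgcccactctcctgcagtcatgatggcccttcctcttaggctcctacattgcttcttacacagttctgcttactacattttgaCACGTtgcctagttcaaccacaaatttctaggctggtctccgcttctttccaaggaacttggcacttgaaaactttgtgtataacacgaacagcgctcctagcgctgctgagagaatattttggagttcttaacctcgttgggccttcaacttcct

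The Ldha window held 5 ACGTG matches, counted over both strands, and 25 CG dinucleotides. The Hif1a window held 3 matches and 14 CG dinucleotides. The Hk3 window held 1 match and 6 CG dinucleotides. A second Ldha window held 0 ACGTG matches and 1 GCGTG match. Because Ldha was picked for its matches and Hk3 for its level, their 7.20 and 140 TPM do not relate matches to level.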

How the data were processed

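Chromatin-fraction RNA was measured in 3 libraries of 1 group. The authors made 3 tables per library on mm10 with GENCODE M21, per the notes deposited with them. The first quantification holds expected counts and TPM per gene and transcript, the percent of a gene's TPM per transcript, and credible bounds on posterior mean TPM, a signal on the TPM scale, per the file headers. The second, made directly from the reads, holds estimated counts and TPM per transcript, per the file headers, and was summed per gene. The sources used here name no tool, version or strand setting for these tables.

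The 10 genes and the 10 other lists were chosen with earlier results of these data known. Entries of a symbol with more than 1 gene identifier (Aldoa) were summed. Log2 CPM used TMM factors of edgeR 4.0.16 on genes with a mean expected count of at least 10 (prior count 0.5), and the scaling was tested on simulated data. Floors were set at 3 counts, or 0.184, 0.176 and 0.185 CPM, for counting error only. Contrasts used log2(TPM + 0.1) and exact sign-flip permutation with Benjamini-Hochberg adjustment. Named were all 10 genes, the top 3 of each list by TPM and up to 2 undetected, up to 3 transcripts per gene, the 3 nearest to Hif1a, and some overlapping genes or copies. Overlaps not described above include Unc5a with Hk3 over 34 nt and Iffo1 with Gapdh over 68 nt. Another is Gm15283 with Hif1a over 46156 nt, at 29.3, 22.1 and 18.1 counts. All 3 lie on the opposite strand, and their part in the levels was not tested. Some listed genes are not reported here by name. Copies came from BLAST 2.17.0 against GENCODE M21 transcripts. Alternatives were the second quantification, posterior mean TPM, rescaled TPM, other pseudocounts, count minimums and scalings (DESeq2 1.42.0), and leaving out each library.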

Additional observations from a re-analysis of the deposited data

How the results depend on the processing

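No paired analysis was possible because there is 1 group. With 3 libraries the sign-flip test cannot pass 0.05, so signs and sizes are compared. Of the 13 contrasts between genes, those among Hk1, Hk2 and Hk3 and that of Pkm and Ldha kept the sign of their mean under every alternative run. So did Pfkp minus Pfkfb3, Hk3 minus Pkm, Pfkp minus Hk2 and Hk1 minus Slc2a1. With posterior mean TPM, Hk1 minus Hk2 shrank to -0.474 and Hk1 minus Hk3 to -3.79. In the second quantification 3 contrasts changed sign: Pkm minus Pfkfb3 was -0.207, Gapdh minus Hif1a -0.954 and Hif1a minus Ldha -0.0387 on the log2 scale. With posterior mean TPM, Ldha minus Hk1 was -0.148. Leaving out 1 library gave -0.144 to 0.434 for Pkm minus Pfkfb3, which was negative without library 2 or library 3, and -0.0855 to 0.59 for Hk2 minus Gapdh, which was negative without library 1 but 2.12 in the second quantification. Hk1 minus Slc2a1 went from 1.10 to 0.474 there. The cause was not tested.

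The median of the 10 levels, 12.2 TPM, was 21.5 TPM in the second quantification and 36.6 TPM when TPM was rescaled over genes of at least 300 nt. That rescaling put 4 genes at 100 TPM in place of 1, which follows from its smaller denominator. The median coding share of 57.1% was 51.2% in the second quantification and 75.9% by expected counts, by which 2 genes (Pfkp and Gapdh) rather than 4 had a noncoding main model. That number was 6 in the second quantification and 3 to 4 on leaving out 1 library. The share over all genes, 35.6%, was taken by the main measure only, so these other numbers have no such share beside them. The count of 10 detected genes and the median spread of 0.361 moved little, with spreads of 0.362 to 0.390. The number of counts, 122 to 274 in a library for Slc2a1, Ldha and Gapdh, limits the precision of their levels.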
